A study of Mus musculus with 2 samples.

Results

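The genes described here encode the route from glucose to pyruvate and on to lactate or acetyl-CoA: glucose transporters, the enzymes of glycolysis and their regulators, lactate dehydrogenases and lactate transporters, the pyruvate dehydrogenase complex with its kinases and phosphatase, and the glycogen enzymes that branch from glucose phosphate. The control array holds RNA of embryoid bodies kept in differentiation medium with no agent, and the FGF10 array RNA of embryoid bodies given recombinant FGF10, a secreted fibroblast growth factor, at 100 ng/ml. Both came from hanging drops of CGR8 cells, a line of mouse embryonic stem cells (strain 129), which had been grown without feeder cells in a serum medium holding leukemia inhibitory factor and pyruvate. The labels place RNA extraction at day 2, whereas the design text places it 24 hours after treatment of embryoid bodies already at day 2, so the exact age is not settled. The members are a list of 39 genes taken by symbol, of which 36 were found. Of these, 35 are among the 18193 genes that a probe set of a single gene symbol names, and Gapdh was read only by chip control probe sets, which stayed out of the counts. Gpi1, Pfkfb1 and Eno1 were not analysed here. A gene is called measured where its mean signal over both arrays reached 76.35, the median over probe sets, and 33 members did. Eno2 and Pdk4 were dimmer than that.

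Glycolysis splits glucose into pyruvate in the cytosol, with the irreversible steps at hexokinase, phosphofructokinase and pyruvate kinase. Pyruvate is then either reduced to lactate and exported or taken into mitochondria, where the pyruvate dehydrogenase complex converts it to acetyl-CoA and is itself switched off by the pyruvate dehydrogenase kinases. Many steps have several isoforms from separate genes, and several of those genes are known targets of the hypoxia-inducible factors. Pluripotent stem cells are known for high glycolytic activity.

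Of the 33 measured members, 7 were at least 1.5-fold higher on the FGF10 array: Aldoc, Pfkfb3, Pgm1, Pfkl, Pfkp, Slc16a3 and Slc2a1. None was 1.5-fold lower. That is 21.2% of members higher, beside 5.41% of all 11122 measured genes higher and 4.86% lower at the same fold. At 2-fold, 3 members were higher (Aldoc, Pfkfb3 and Pgm1), against 1.32% of all genes. The median log2 ratio of FGF10 over control was 0.22 over the members and -0.027 over all measured genes, and 24 members lay above 0 and 9 below it, against 46.5% of all genes above 0. Ratios ran from -0.38 (Pdha1) to 1.70 (Aldoc). With 1 array per group there is no test and no estimate of the spread between cultures. The only error available is technical: the disagreement between probe sets of the same gene gives an SD of a log2 ratio of 0.19 in the brightest of 5 signal bins of genes and 0.41 in the dimmest. In RNA from whole embryoid bodies, fewer cells of a type and less RNA per cell cannot be told apart.

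**Figure D1:**
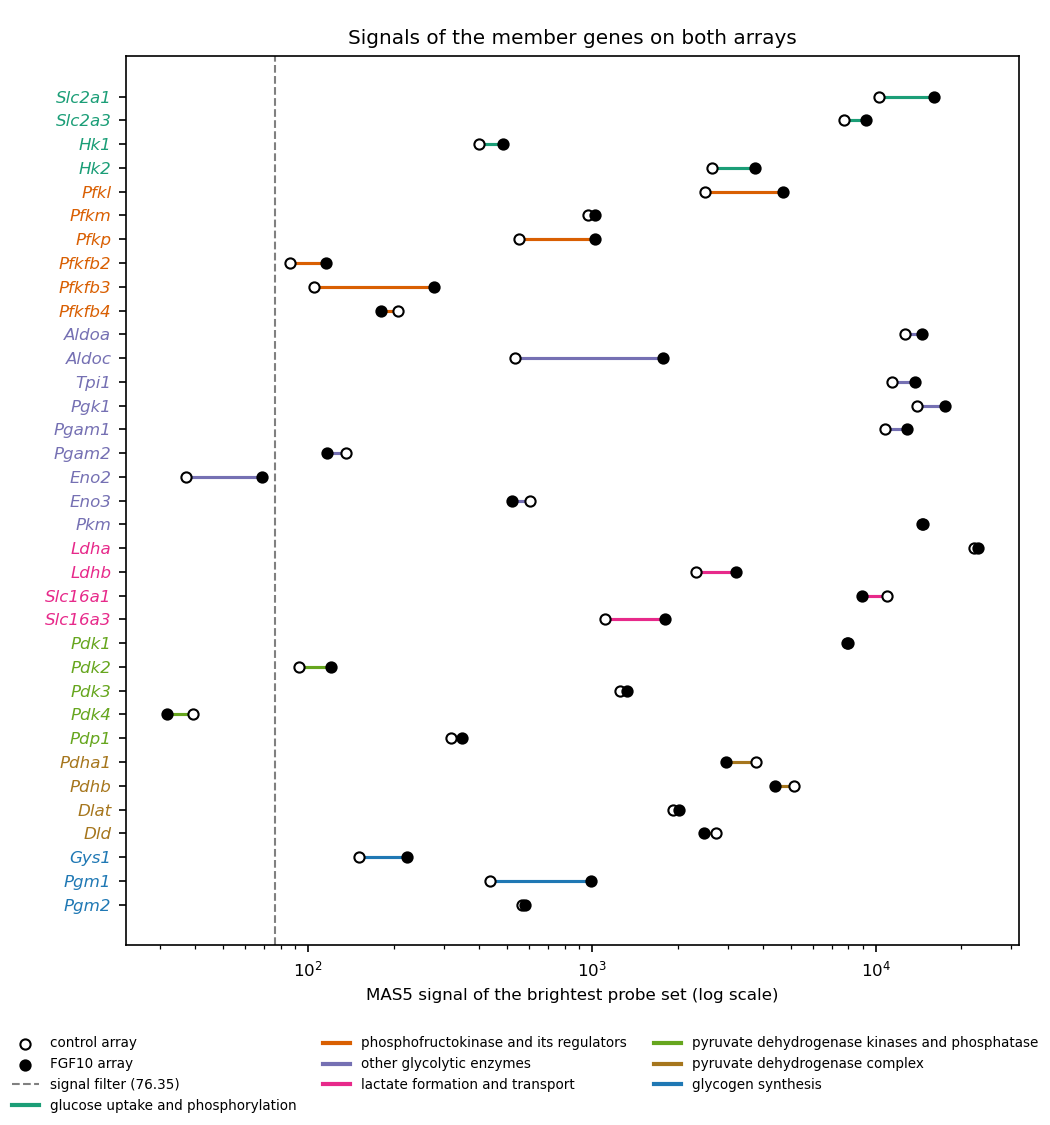
MAS5 signal (log axis) of the brightest probe set of 35 members, with open circles for control, filled circles for FGF10 and joining lines coloured by role. Aldoc, Pfkfb3 and Pgm1 have the widest gaps, Pkm and Pdk1 almost none, and Eno2 and Pdk4 lie left of the filter at 76.35.

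At the point of entry, both glucose transporter genes and both hexokinase genes had ratios above 0, and Slc2a1 alone passed 1.5-fold. Slc2a1, which encodes the widespread glucose transporter GLUT1, had a control signal of 10216.5 and an FGF10 signal of 16005, so its log2 ratio was 0.61 (technical SD 0.19). Its other probe sets gave 0.68 and 0.74, so it stood on the same side of 1.5-fold on each of its 3 probe sets. Slc2a3, the gene of the high-affinity transporter GLUT3, went from 7714.2 to 9229.2 (0.22) on its brightest probe set. Its dimmer probe sets gave 0.47, 0.66 and 0.77, the last from signals of 737.3 and 1283.1. The probe set that gave 0.22 is of the _s_at type, which can also bind transcripts of other genes, and without such types the ratio was 0.66. Hk2, the inducible hexokinase, read 2641.5 and 3759.6 (0.47), and Hk1, the constitutive form, 400.7 and 484 (0.24). The hexokinase isoforms differed by 0.24, less than the technical SD of that difference (0.33).

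Phosphofructokinase, which commits sugar to glycolysis, was the step with most genes past 1.5-fold. Pfkl, the liver-type subunit, went from 2501.4 to 4714.4 (0.88, 1.84-fold), and its other probe sets gave 0.79 and, at dim signals of 87.9 and 116.1, 0.37. Pfkp, the platelet-type subunit, went from 552.6 to 1022.6 (0.85), with 0.37 and 0.70 on its other probe sets. Pfkm, the muscle-type subunit, read 965.3 and 1021.6 (0.05). The ratio of Pfkl lay 0.83 above that of Pfkm (technical SD 0.29), and that of Pfkp lay 0.81 above it (technical SD 0.35). Pfkl and Pfkp differed from each other by 0.026. On the second probe set of Pfkp its distance from Pfkm was 0.33.

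The Pfkfb genes encode enzymes that make and remove the sugar bisphosphate that activates phosphofructokinase. Pfkfb3, the isoform with the highest kinase over phosphatase activity, went from 104.6 to 278.3 (1.38, 2.6-fold). Its dimmer probe set, with signals of 56.9 and 114.4, passed the filter only through the FGF10 array. It gave 0.97, and 0.55, under 1.5-fold, with the control signal raised to the filter. Pfkfb4 read 207.2 and 180.2 (-0.24) and Pfkfb2 86 and 115.3 (0.39). Pfkfb3 lay 1.61 above Pfkfb4, with a technical SD of 0.49, and 0.99 above Pfkfb2, with one of 0.54. All these signals were low, and with the filter at the 75th percentile none of the 3 genes was measured.

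Aldolase, which cleaves the bisphosphorylated sugar, showed the widest gap between isoforms next to Pfkfb3 and Pfkfb4. Aldoc, the brain-type aldolase, went from 534.6 to 1775.9, a log2 ratio of 1.70 (3.24-fold), and ranked 31 of 11122 genes from the top. Its other probe set was at 1.8 and 3.4, far under the filter, so the value rests on 1 probe set. Aldoa, the muscle-type and most widespread form, read 12683.4 and 14533.5 (0.16), and its other probe sets ran from -0.38 to 0.60. All 5 Aldoa probe sets are of the _x_at type, which can bind near-identical copies elsewhere. Aldoc lay 1.54 above Aldoa (technical SD 0.29), and between 1.28 and 1.54 over the 10 alternatives that measure both.

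**Figure D2:**
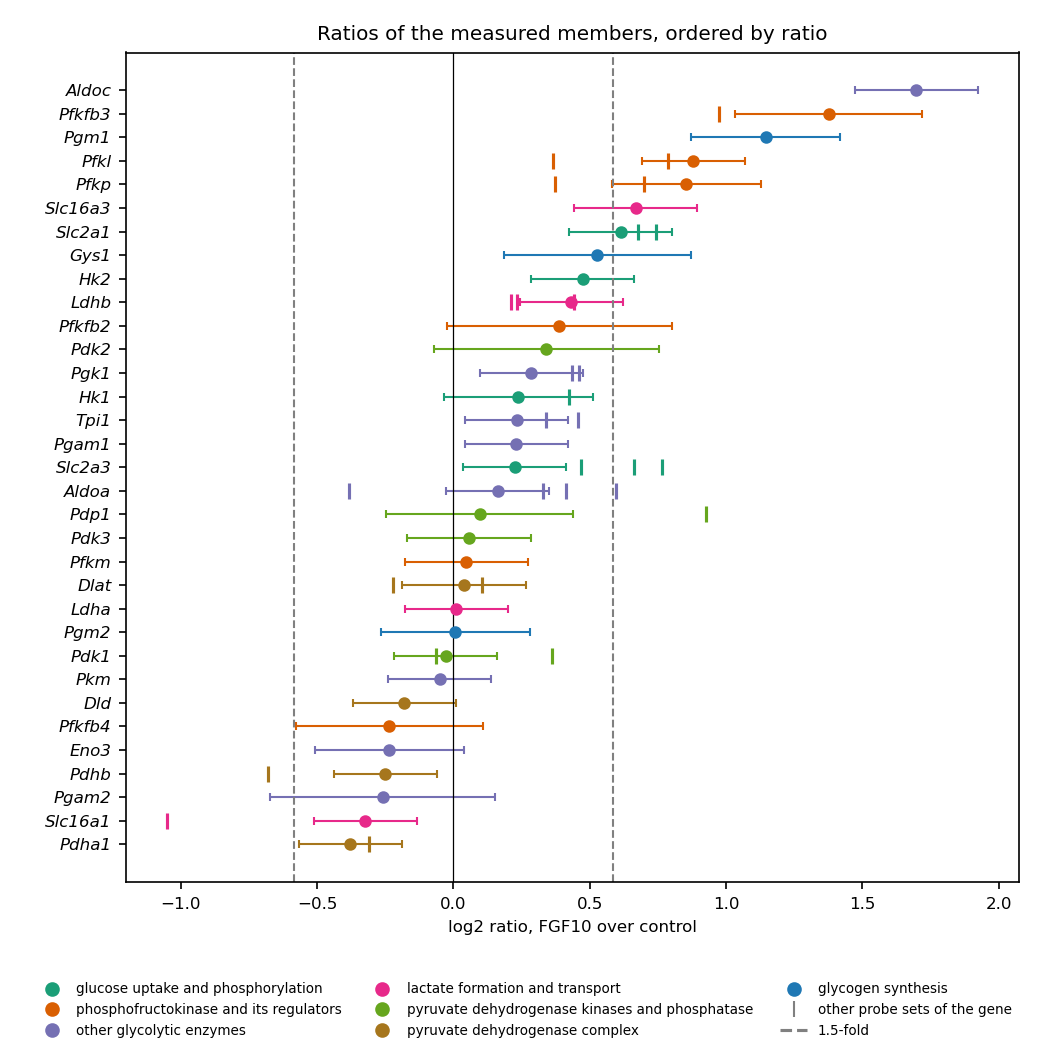
Log2 ratio of FGF10 over control for the 33 measured members, ordered by ratio and coloured by role. Points are the brightest probe set with its technical SD as the bar, ticks are the gene's other probe sets that passed the filter, and dashed lines mark 1.5-fold; 7 members lie right of the upper line and the lowest, Pdha1, is at -0.38.

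Between aldolase and pyruvate none of the 6 measured genes passed 1.5-fold. With so few genes that count is near the shares of all genes, 5.41% higher and 4.86% lower. Tpi1, Pgk1, Pgam1 and Pkm had mean signals above 10000, where 1 of 289 genes was higher and 3 were lower. Tpi1, triosephosphate isomerase, read 11400 and 13712.9 (0.23), with 0.34 and 0.46 on its other probe sets. Pgk1, phosphoglycerate kinase, read 13999.2 and 17479.6 (0.29), with 0.44 and 0.46 on the others, and Pgam1, phosphoglycerate mutase, 10728.8 and 12892.7 (0.23). These genes were above 0 on each of their measured probe sets and all under 1.5-fold. Pgam2, the muscle-enriched mutase, read 136.2 and 116.5 (-0.26, technical SD 0.41). Eno3, the muscle enolase, read 602.2 and 523.7 (-0.24, technical SD 0.27). Both ratios were within their technical SD of 0, and Pgam1 lay 0.49 above Pgam2 (technical SD 0.45). Eno2, the neuronal enolase, was at 37.2 and 68.8, both under the filter. Pkm, pyruvate kinase, read 14650.6 and 14499.3 (-0.05), a value that was 0.15 after quantile and 0.16 after loess normalization. Gapdh, on its chip control probe sets, read 23491.7 to 28944.5 on the control and 19956.5 to 24618.1 on the FGF10 array, with ratios of -0.30 to -0.27. The chip control probe sets of Actb, which encodes beta-actin, gave -0.30 to -0.25.

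Bright genes as a class were lower on the FGF10 array. The 289 genes with a mean signal at or above 10000, a limit chosen after the values were seen, had a median of -0.22, and 1 of them was 1.5-fold higher, Slc2a1. Among those 289, the 7 bright members ranked as follows from the highest ratio: Slc2a1 1, Pgk1 2, Tpi1 6, Pgam1 7, Aldoa 10, Ldha 25 and Pkm 41. Their median was 0.23. All 7 ratios lay above the median of those genes. Slc16a1, just under that limit at a mean of 9955, had -0.32, and the chip control probe sets of Gapdh -0.30 to -0.27, both below it. At or above 5000 the 10 members had a median of 0.19 and all 878 genes one of -0.17. Loess normalization, which takes out the trend with signal, gave 0.81 for Slc2a1, 0.50 for Pgk1, 0.43 for Tpi1, 0.42 for Pgam1, 0.37 for Aldoa and 0.26 for Ldha. None but Slc2a1 passed 1.5-fold there either. Whether the trend comes from the RNA or from the arrays was not tested.

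**Figure D3:**
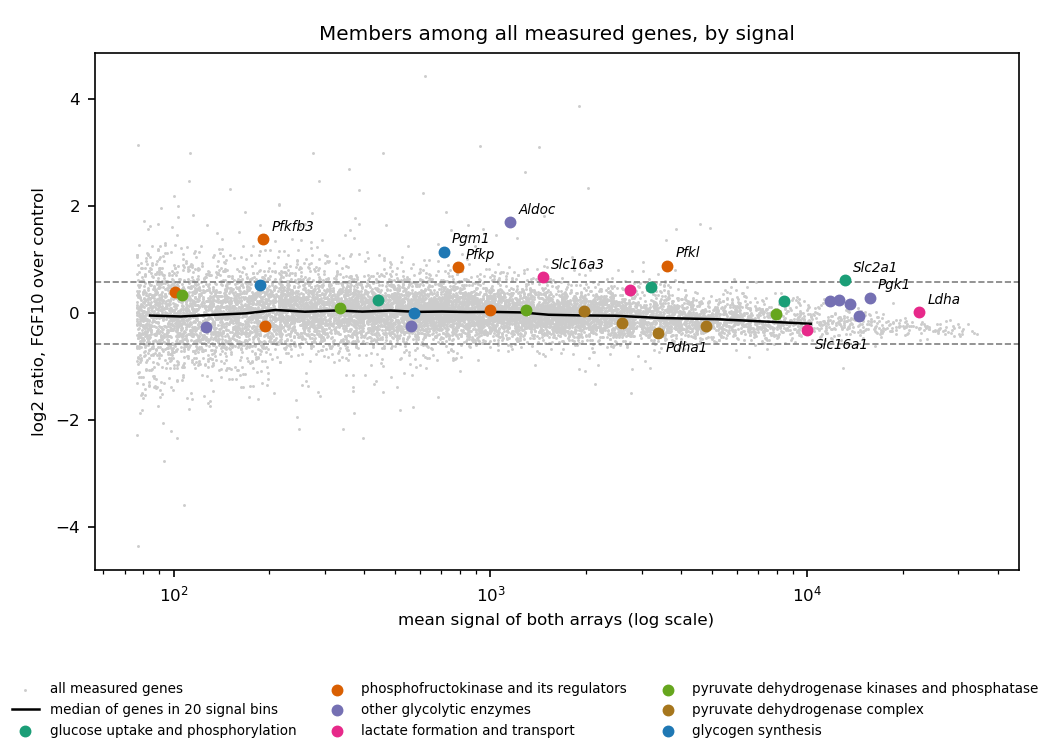
Log2 ratio against mean signal (log axis) for 11122 measured genes (grey), with the 33 members coloured by role, the median of genes in 20 signal bins as a line, and 1.5-fold as dashed lines. The line drops at the bright end, where Slc2a1, Pgk1, Tpi1, Pgam1, Aldoa, Ldha and Pkm lie above it. Gapdh, read only by chip controls at ratios of -0.30 to -0.27, is not plotted.

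At the lactate branch 1 of 4 genes passed 1.5-fold, the transporter gene Slc16a3. So few genes cannot set a count of 1 apart from the 5.41% of all genes that were higher. Slc16a3, which encodes the lactate exporter MCT4, went from 1113.6 to 1813.5 (0.67). Slc16a1, which encodes the bidirectional transporter MCT1, read 10948.1 and 8962 (-0.32), and after quantile or loess normalization its ratio was -0.18 or -0.15. Genes of its brightness were low as a class, with a median of -0.17 at or above a mean signal of 5000. Its dim second probe set, at 104.1 and 51.4, passed the filter only through the control array and gave -1.05, or -0.48 with the FGF10 signal raised to the filter. The difference between the transporters was 0.99 with a technical SD of 0.29, and 0.83 after loess normalization. Slc16a3 has 1 probe set. Ldha, the subunit that favours lactate formation, was the brightest member at 22159.3 and 22858.9 (0.01). Ldhb, the heart-type subunit, read 2320.1 and 3206.2 (0.43) and between 0.21 and 0.44 on its other probe sets.

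The pyruvate dehydrogenase complex showed small ratios, under 0 for 3 of its 4 measured subunits. Pdha1, the catalytic alpha subunit, read 3772.6 and 2971.1 (-0.38, and -0.31 on its other probe set). Pdhb, the beta subunit, read 5127.5 and 4415.6 (-0.25), with -0.68 on a probe set at 178.8 and 114.2. Dld, the dehydrogenase shared with other complexes, read 2735.4 and 2472.4 (-0.18), and Dlat, the acetyltransferase core, 1924.3 and 2024.3 (0.04). The 4 subunits had a median of -0.21, all within 1.5-fold on their brightest probe sets. With so few genes that is near the shares of all genes, 5.41% higher and 4.86% lower. The signs of Pdha1, Pdhb and Dld held after quantile and loess normalization. Pdha1, Pdhb and Dld are in the brightest of the 5 signal bins, where the median over all genes was -0.12.

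The kinases that inactivate the complex were close to equal. Pdk1, the best known hypoxia-inducible kinase, read 7925.1 and 7961.9 (-0.03), with -0.06 and 0.36 on its other measured probe sets. Its sign turned without centring and after quantile (0.13) or loess (0.12) normalization. Pdk3 read 1250.6 and 1332.1 (0.06) and Pdk2 92.5 and 120 (0.34), while Pdk4 was under the filter at 39.4 and 31.7. Pdp1, the phosphatase that reactivates the complex, read 319.1 and 349.3 (0.10), but 0.93 on its other probe set, at 99.5 and 193.7.

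At the branch to glycogen, Pgm1, the main phosphoglucomutase, went from 436.1 to 987.4 (1.14, 2.21-fold). Its other probe set was under the filter at 31.3 and 31.5. Pgm2, which acts mainly on pentose phosphates, read 565.8 and 581.9 (0.01), and the genes differed by 1.14 with a technical SD of 0.39. Older sources use these symbols the other way round, and here they follow the current gene table, with Pgm1 on chromosome 4 and Pgm2 on chromosome 5. Gys1, the muscle-type glycogen synthase, read 151.4 and 223.6 (0.53) and was the member nearest under the 1.5-fold line, at 0.58, as Slc2a1 was nearest above it.

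Hypoxia-inducible factors bind the core letters ACGTG or GCGTG in DNA. The promoters of the 4 highest members and of a steadier isoform of the same step are shown to let them be read side by side. The plan allowed for more of the higher members to be shown, and the matches of those left out are given below. Each window runs from 250 bases before to 50 after a transcript start, in RefSeq on GRCm38.p6, 5′ to 3′ on the gene's strand, with every match on either strand in capitals (reverse matches read CACGT and CACGC). Where a step has several steadier isoforms, the brightest was taken, so Pfkfb4 is shown and Pfkfb2 is not. Where a gene has several starts, the window with most matches was taken. CACGTG holds ACGTG on both strands and counts as 2 matches. The windows are chr11:78322823-78323122 (+) for Aldoc, chr7:126799205-126799504 (-) for Aldoa, chr2:11502041-11502340 (-) for Pfkfb3 and chr9:108991652-108991951 (+) for Pfkfb4. They are chr4:99929201-99929500 (+) for Pgm1, chr5:64092689-64092988 (+) for Pgm2, chr10:78009758-78010057 (-) for Pfkl and chr15:98092339-98092638 (+) for Pfkm.
Aldoc: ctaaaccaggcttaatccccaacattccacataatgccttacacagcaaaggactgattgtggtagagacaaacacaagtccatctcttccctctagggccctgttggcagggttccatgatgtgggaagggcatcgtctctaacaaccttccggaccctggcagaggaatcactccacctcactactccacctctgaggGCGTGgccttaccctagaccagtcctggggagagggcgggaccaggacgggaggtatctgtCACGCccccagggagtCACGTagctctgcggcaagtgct
Aldoa: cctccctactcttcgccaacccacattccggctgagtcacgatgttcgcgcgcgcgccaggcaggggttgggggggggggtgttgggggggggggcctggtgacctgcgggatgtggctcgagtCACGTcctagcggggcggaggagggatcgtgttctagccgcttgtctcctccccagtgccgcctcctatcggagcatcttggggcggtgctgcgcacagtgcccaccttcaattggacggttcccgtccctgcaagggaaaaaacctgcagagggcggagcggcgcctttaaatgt
Pfkfb3: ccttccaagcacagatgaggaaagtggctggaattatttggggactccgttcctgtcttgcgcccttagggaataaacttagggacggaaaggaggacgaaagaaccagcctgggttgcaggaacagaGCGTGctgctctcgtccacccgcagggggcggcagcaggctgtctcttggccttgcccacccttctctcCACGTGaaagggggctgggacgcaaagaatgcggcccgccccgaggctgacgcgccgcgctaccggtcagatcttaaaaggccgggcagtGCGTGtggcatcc
Pfkfb4: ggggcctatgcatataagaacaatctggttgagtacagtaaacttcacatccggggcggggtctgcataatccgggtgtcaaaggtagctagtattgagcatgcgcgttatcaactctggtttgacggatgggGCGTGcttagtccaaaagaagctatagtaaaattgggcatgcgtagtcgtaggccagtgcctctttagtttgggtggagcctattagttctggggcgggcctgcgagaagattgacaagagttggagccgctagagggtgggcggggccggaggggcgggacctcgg
Pgm1: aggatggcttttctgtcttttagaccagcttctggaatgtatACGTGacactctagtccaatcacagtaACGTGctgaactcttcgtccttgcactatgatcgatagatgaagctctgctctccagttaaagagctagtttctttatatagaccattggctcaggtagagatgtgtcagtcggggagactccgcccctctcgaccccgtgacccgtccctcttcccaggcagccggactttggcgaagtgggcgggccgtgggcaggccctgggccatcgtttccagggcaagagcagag
Pgm2: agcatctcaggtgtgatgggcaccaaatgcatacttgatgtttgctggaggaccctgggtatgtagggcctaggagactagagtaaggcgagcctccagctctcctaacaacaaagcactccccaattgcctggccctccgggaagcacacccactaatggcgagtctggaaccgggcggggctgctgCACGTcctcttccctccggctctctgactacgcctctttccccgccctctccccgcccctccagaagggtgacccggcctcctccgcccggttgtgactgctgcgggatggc
Pfkl: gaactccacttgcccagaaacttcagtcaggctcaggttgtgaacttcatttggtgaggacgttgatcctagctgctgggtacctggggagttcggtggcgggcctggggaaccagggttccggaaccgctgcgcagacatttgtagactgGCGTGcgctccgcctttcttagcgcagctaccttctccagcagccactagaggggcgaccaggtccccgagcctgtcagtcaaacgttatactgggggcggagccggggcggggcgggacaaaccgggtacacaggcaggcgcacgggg
Pfkm: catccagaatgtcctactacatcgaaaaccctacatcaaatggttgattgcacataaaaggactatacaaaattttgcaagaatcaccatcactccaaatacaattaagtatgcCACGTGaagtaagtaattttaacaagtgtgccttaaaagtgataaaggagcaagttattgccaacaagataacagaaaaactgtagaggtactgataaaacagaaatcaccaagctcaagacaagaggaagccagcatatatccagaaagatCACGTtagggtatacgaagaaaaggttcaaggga

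The windows held 3 matches for Aldoc and 1 for Aldoa, 4 for Pfkfb3 and 1 for Pfkfb4, 2 for Pgm1 and 1 for Pgm2, and 1 for Pfkl against 3 for Pfkm. Each count is the highest over 2 windows for Aldoc and Pfkfb3, 3 for Aldoa, 4 for Pfkm and 1 for the others, so the counts are not like for like. The other windows held 1 match for Aldoc, 1 for Pfkfb3, 0 and 1 for Aldoa, and 0 to 2 for Pfkm. Pairs not printed went both ways: Pfkp held 4 against 3 for Pfkm, and Slc16a3 held 2 against 5 for Slc16a1. Slc2a1 held 2. Pfkfb2, the other measured isoform beside Pfkfb3 and within 1.5-fold, held 4 in the fullest of its 3 windows, as many as Pfkfb3. Of the 39 members, 37 had windows, and Slc2a3 and Pdp1 had none listed. At least 1 match was found for all 7 higher members and for 19 of the 24 other measured members with a window. ACGTG itself was found for 5 of the 7 and 14 of the 24. Such short motifs are common: 43.8% of all 32851 windows held at least 1 match, as did 69.1% of the 9047 measured genes with a window, and 30.1% of those genes held ACGTG. A window of Ldha, whose ratio was 0.01, had the most matches of any member, 7. A match is a string of letters, and binding was not measured.

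Neighbouring pathways gave the setting for these values. None of the 17 measured genes of the tricarboxylic acid cycle and none of the 9 of the pentose phosphate pathway passed 1.5-fold either way, with medians of -0.09 each. Over all measured genes 5.41% were higher and 4.86% lower. Most genes of these pathways had a mean signal of at least 1000, where 76 of all 4230 genes were higher and 55 lower. Counts of 0 in lists this small are near those shares. The 15 measured genes of other isoforms and partners of these steps had 0 past 1.5-fold and a median of 0.14. They included Bsg, the chaperone of the lactate transporters (0.28), the mitochondrial pyruvate carrier gene Mpc1 (-0.45), and Tigar, which lowers the phosphofructokinase activator (-0.56). The 3 measured probe sets of Tigar ran from -0.56 to 0.08, so they did not share a sign. In glycogen metabolism 2 of 16 were higher, Gbe1, the branching enzyme (316.5 and 509.9, 0.65), and Ppp1r3b, a glycogen-targeting phosphatase subunit (77 and 206.3, 1.39). The control signal of Ppp1r3b was barely above the filter of 76.35, and the gene has 1 measured probe set. In gluconeogenesis 2 of 11 were higher, Pck2, the mitochondrial enzyme that makes phosphoenolpyruvate (248.9 and 460.6, 0.85), and Slc37a4, the glucose phosphate transporter of the endoplasmic reticulum (0.78). Lists this small hold too few genes to set a count of 2 apart from the 5.41% of all genes. Among 22 other hypoxia-inducible genes the median was 0.77, and 13 passed 1.5-fold upward and 0 downward, beside 5.41% and 4.86% of all genes. The 5 with the highest ratios were Ndrg1 (186.5 and 1667, 3.13), Ndufa4l2 (24.6 and 200, 2.99), Egln1, an oxygen-sensing hydroxylase (548.5 and 1534.3, 1.45), Ddit4 (1957.6 and 5179.6, 1.37) and Ccng2 (390.8 and 974.5, 1.28). Ndufa4l2 and Adm passed the filter only through the FGF10 array, and with the control signal raised to the filter Ndufa4l2 gave 1.36 and Adm, at 73.7 and 167.1, gave 1.10. The list was chosen with these ratios known.

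**Figure D4:**
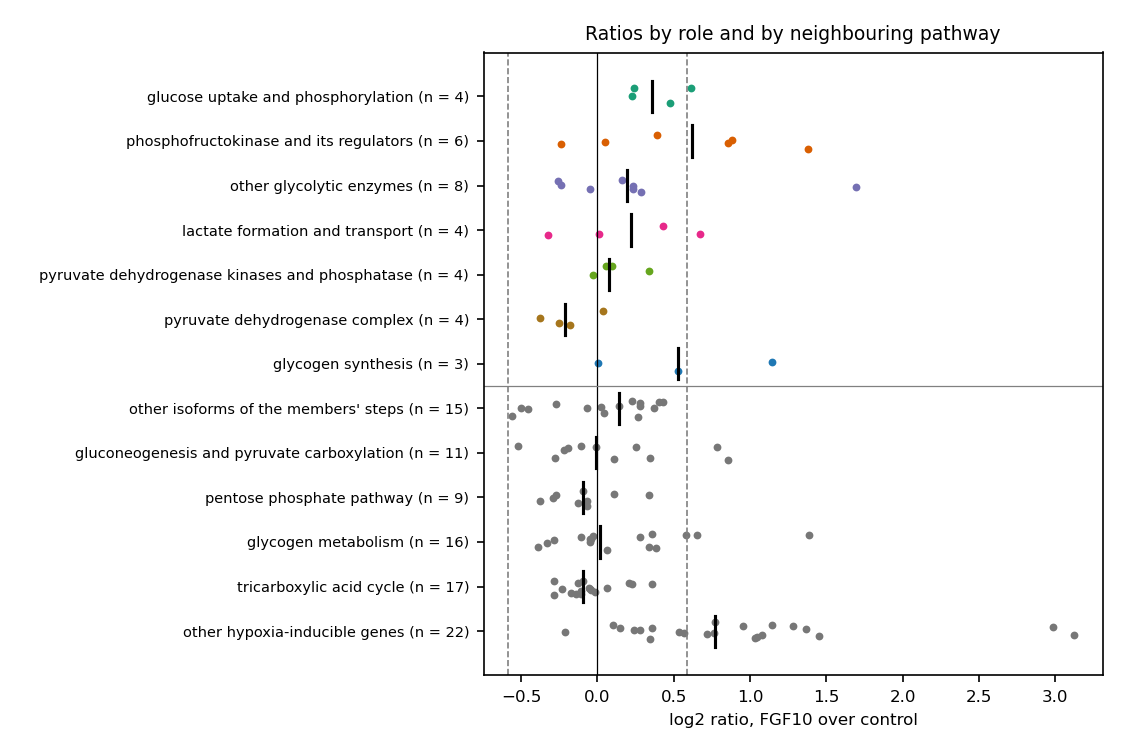
Log2 ratio of FGF10 over control for each measured gene, by role of the members (coloured, above the line) and by neighbouring pathway (grey), with medians as black bars and 1.5-fold as dashed lines. Phosphofructokinase and its regulators have the highest median among the member roles (0.62), the pyruvate dehydrogenase complex the lowest (-0.21), and other hypoxia-inducible genes lie farther right (0.77).

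Over the 16 members with at least 2 probe sets that passed the filter, the brightest and the second had the same sign in all 16, against 65.7% of the 5213 such genes overall. Over all their measured probe sets 13 of the 16 kept 1 sign, and Aldoa, Pdk1 and Dlat did not. Of the 4 higher members among them, Pfkl and Slc2a1 were 1.5-fold higher on a second probe set that was above the filter on both arrays, and Pfkp was not. The second probe set of Pfkfb3 was under the filter on the control array, and that of Slc16a1 (104.1 and 51.4) on the FGF10 array. Each passed through the array where it was brighter, which favours the sign it showed. The 5213 genes were not matched to the members in signal or size of ratio, so the 65.7% is not a like comparison. Aldoc, Pgm1 and Slc16a3 each rest on 1 measured probe set.

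Cell markers differed between the arrays along with these genes. All 6 primitive streak markers were 1.5-fold higher, from Evx1 (1.17) to Mixl1 (3.87), with signals summing to 2723 on the control and 13300 on the FGF10 array. Of 7 visceral endoderm markers 4 were lower (Apoa1, Hnf4a, Cubn and Ttr), with sums of 8342 and 5567. The 3 measured probe sets of Hnf4a ran from -0.90 to 0.15, so they did not share a sign. Of 6 pluripotency markers 2 were lower (Dppa5a and Zfp42), with sums of 39310 and 32260. Without Dppa5a the sums were 22130 and 23610, and Nanog (0.22), Pou5f1 (0.07) and Sox2 (-0.003) were within 1.5-fold. Of 8 fibroblast markers 3 were measured, with Thy1 lower (369.4 and 248.3), Pdgfrb higher (36.4 and 145.6, above the filter on the FGF10 array alone) and sums of 636.4 and 597.7 over all 8. Of 9 muscle markers 3 were measured, with Myh3 lower and sums of 910.6 and 807.1 over all 9. Of 8 neural markers 4 were measured, with Pax6 lower (101.2 and 53.6) and sums of 899.8 and 725.7 over all 8. The fall in the sums lies mostly in the markers too dim to be measured. Those were Gfap (76.4 and 30.4), Dcx (44.9 and 4.8), Sox1 (40.7 and 2.4) and Neurog2 (22.6 and 1.6). The other measured ones, Tubb3 (-0.26), Map2 (0.29) and Elavl3 (0.18), were within 1.5-fold. Pax6 was above the filter on the control array alone, and with the FGF10 signal raised to the filter it was within 1.5-fold (-0.44). Of 7 erythroid markers 1 was measured, with sums of 339.6 and 324.3 over all 7. The part of cell makeup in the ratios above was not tested. RNA ends were alike on both arrays: the ratio of the 3′ to the 5′ chip control was 0.81 on both for Gapdh, and 1.27 and 1.23 for Actb.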

How the data were processed

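Total RNA of the 2 samples, grouped by their titles, carried a biotin label and went on 1 Affymetrix array each. The deposited values are signal intensities per probe set on a linear scale, made by the authors with MAS5 per the submitters' processing notes, which give no version. Their mean without the lowest and highest 2% is 500 on both arrays, the form that scaling to a common target leaves, so ratios are relative to the rest of the array. MAS5 values are noisy at low signal, and detection calls were not used here.

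Of 45101 probe sets, 64 are chip controls and were left out, except where named. Gene names came from the platform's annotation, for probe sets with 1 symbol. Probe sets with a mean signal of at least 76.35 were kept (22524). The ratio is log2 of FGF10 over control signal minus the median over kept probe sets (0.034), for the brightest kept probe set of a gene. Technical SD is the SD, over genes, of the brightest minus the second kept probe set's ratio, divided by the square root of 2, in 5 signal bins. Calls are at 1.5-fold, with no test. Every member is named, and of each other list at most 5 genes past 1.5-fold each way, by largest ratio. Bsg, Mpc1, Tigar and the dim genes of the closing section were picked after their values were seen. Members, roles, lists and thresholds were chosen with earlier results of these data known. The procedure was tested on simulated data with equal noise at all signals. The technical SD rises as signal falls, so that test does not gauge the calls on dim genes. Python 3.11.15, numpy 2.4.6, pandas 2.3.3 and statsmodels 0.14.6 (loess, span 0.3) were used. Protein sequences are not shown.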

Additional observations from a re-analysis of the deposited data

How the results depend on the processing

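Over 11 alternatives in scaling, offset, filter, probe set choice and treatment of dim signals, the number of members at least 1.5-fold higher stayed between 6 and 8 of 25 to 35 measured. Pfkfb3 was lost to the filter at the 75th percentile. Using the second brightest probe set lost Pfkp and gained Pdp1. Eno2 was gained without a signal filter, and Slc2a3 without _x_at and _s_at probe sets. At 2-fold the count was 3. The number lower was 0, except 1 (Slc16a1) with the mean over probe sets and 2 (Slc16a1 and Pdhb) with second brightest probe sets. The median over members was 0.32 after quantile normalization, 0.31 after loess normalization, 0.33 with the mean over probe sets and 0.34 with second brightest probe sets; with Gapdh added from chip controls, chosen after seeing the data, it was 0.19. The difference of Slc16a3 from Slc16a1 was 1.36 with the mean over probe sets and 1.72 with second brightest ones, and that of Pfkp from Pfkm was 0.33 with the latter. The second probe set of Slc16a1 is above the filter on the control array alone, so these wider differences and its call as lower rest on a probe set kept through 1 array. Raising the dim signal of second probe sets and of genes on other lists to the filter was chosen after seeing the data. No 1.5-fold member changed sign under these alternatives. Signs turned for Pkm, Pdk1 and Pgm2 after quantile and loess normalization, for Pdk1 also without centring, at the stricter filter and with the mean over probe sets, and for Dlat with that mean; their reported ratios run from -0.05 to 0.04. Values under about 200 signal, such as those of Pfkfb2, Pfkfb3, Pfkfb4, Pgam2, Pdk2 and Gys1, carry a technical SD of 0.34 to 0.41. No paired analysis was possible because each group has 1 array.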

Other observations

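Several relatives of the members were too dim on both arrays together to count as measured, and their signals are given without ratios. Pklr, the pyruvate kinase of liver and red cells, had a control signal of 127.5 and an FGF10 signal of 24. Gapdhs, the sperm form of Gapdh, had 14 and 106.9 in the same order. Gys2, the liver glycogen synthase, was at 4.4 and 8.7, Slc2a2, the transporter gene of liver and beta cells, at 59.8 and 37.2, and Pygm, the muscle glycogen phosphorylase, at 33.6 and 31.1. Probe sets that match Gapdh together with its processed copies gave ratios of -0.31, -0.12 and -0.39, the brightest at 21230.2 and 17538.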
